A study of Homo sapiens with 6 samples.

Results

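Histone genes were examined in 12Z cells, an established line of human endometriotic epithelial cells, with and without the adipokine chemerin. The members were all genes whose symbols name a replication-dependent (RD) histone gene of the H1, H2A, H2B, H3 or H4 type, or a histone variant, among them H1-10, H2AX, H2AZ1, H2AZ2, H2AJ, H3-3A, H3-3B, MACROH2A1 and MACROH2A2. The rule found 60 of the 16279 genes in the tables, of which 50 were RD genes and 10 were variants. RefSeq lists 81 protein-coding names that match the rule, and the other 21 were not analysed here. Control cells (n = 3) received no chemerin. The rhChem157S cells (n = 3) received 10 ng/mL recombinant human chemerin, a fragment that ends at serine 157, for 48 h. Both groups were the same cell line with no other treatment stated. Libraries are called replicates 1 to 3 of each group as their labels number them. The labels call them biological replicates without saying whether they were separate cultures, and the p-values measure the spread between these libraries.

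The libraries held 35430881 to 38341643 counts on genes. A single count was worth at most 0.0282 CPM (counts scaled to the library total). By counting error alone, a count of 0 allows up to 3 counts. In the check of cell identity, KRT8, KRT18 and KRT19 were high, between 277 and 966 FPKM. FPKM is fragments per kilobase of gene length, scaled to the library total. The epithelial markers MUC1 (6.79 to 14.4 FPKM) and KRT7 (1.19 to 2.01 FPKM) were lower. EPCAM (0.125 to 0.807 FPKM) and CDH1 (0.0859 to 0.381 FPKM) were near 0. By immunoblot, the paper detected both E-cadherin, the CDH1 protein, and MUC1 in this cell line. Of the 7 epithelial markers, 2 were higher and 3 lower with rhChem157S at an unadjusted p under 0.05. Of all genes tested, 11.4% were called in each direction by that rule. The summed level of the 7 markers was 1596 to 1866 FPKM in Control and 1760 to 1976 FPKM in rhChem157S libraries. Of the 4 mesenchymal markers, 1 (VIM) was higher. Their summed level was 1939 to 2036 FPKM in Control and 2729 to 3991 FPKM in rhChem157S libraries. VIM carried this difference, at 827 to 991 FPKM in Control and 1507 to 3247 FPKM in rhChem157S libraries. COL1A1, PDGFRB and DCN overlapped between the groups. COL1A1 was at 945 to 1104 FPKM in Control and 728 to 1165 FPKM in rhChem157S libraries. PDGFRB was at 16.6 to 21.2 against 5.52 to 19.8 FPKM, and DCN at 10.9 to 29.5 against 11.3 to 37.1 FPKM. The leukocyte marker PTPRC reached at most 0.0535 FPKM, while CD68, also listed for leukocytes, was at 70.0 to 134 FPKM. CD3E was not analysed here. The endothelial markers PECAM1 and CDH5 reached at most 0.0386 and 0.144 FPKM. The part of these markers in the results on histone genes was not tested.

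Histones package DNA into nucleosomes, which hold pairs of H2A, H2B, H3 and H4 around which DNA is wrapped, with linker histone H1 at the entry site. RD histone genes lie in clusters, have no introns in their main form, and are transcribed in S phase, when new DNA has to be packaged. Their main mRNAs carry no poly(A) tail and end just after a conserved stem-loop, which is bound by SLBP, whereas variant genes lie alone, are transcribed through the cell cycle and give polyadenylated mRNAs. Some RD genes can also give longer, polyadenylated mRNAs, which have been described in differentiated and non-dividing cells.

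Of the 50 RD genes, 46 lie on chromosome 6 (chr6:26020490-27893843) and 4 on chromosome 1 (chr1:149782689-149887364), by GENCODE release 29 on GRCh38. The ends of the transcript models show the difference between the classes. The sequences below are from transcripts of GENCODE 29, written 5′ to 3′ with 7 bases on each side of the stem-loop, which is in capitals. They show a typical RD gene of low count (H4C2), RD genes whose models run on past the stem-loop (H2AC6, H2BC21, H4C8), and the single variant that has one (H2AX).
H4C2: ttccaatGGCCCTTTTCAGGGCCgcccact
H4C8: aaccaaaGGCCCTTTTCAGGGCCgcccact
H2AC6: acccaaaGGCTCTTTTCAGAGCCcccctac
H2BC21: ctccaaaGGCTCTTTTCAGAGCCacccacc
H2AX: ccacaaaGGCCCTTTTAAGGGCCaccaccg
The windows lie in the 3′ untranslated region at chr6:26026894-26026923 (minus strand), chr6:26285124-26285153 (minus), chr6:26124662-26124691 (plus), chr1:149886181-149886210 (minus) and chr11:119094891-119094920 (minus). Searched as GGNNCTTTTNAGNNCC on the transcript strand, the stem-loop was found in 19 of 50 RD genes, in 1 of 10 variants and in 0.264% of 19684 protein-coding genes. Models of 26 RD genes held coding sequence only, so that these could not show it. The model of H4C2 ended 86 bases after the stem-loop, and those of H4C8, H2AC6 and H2BC21 ran on for 630, 1114 and 1729 bases.

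The poly(A) signals of the 3 RD genes that run on, and of 3 variants, are shown with the hexamer in capitals, since they mark the other kind of end.
H4C8: caataaaaggtgAATAAAatcaggtcactc
H2AC6: ctggcatgaggtAATAAAaggtaatgc
H2BC21: gctattgttattAATAAAgttaccaattaa
H2AX: tggactaattttATTAAAggattgtttttt
H2AZ1: gtggataagttcAATAAAggtcatatccca
H3-3B: ggatgagactaaAATAAAatttttgaagtt
These lie at chr6:26281062-26281091 (minus), chr6:26139076-26139102 (plus), chr1:149884465-149884494 (minus), chr11:119093881-119093910 (minus), chr4:99948090-99948119 (minus) and chr17:75776436-75776465 (minus). AATAAA or ATTAAA stood in the last 50 bases of a coding transcript in 14 of 50 RD genes, in 9 of 10 variants and in 81.9% of all protein-coding genes. A match describes the letters of a model and is not evidence that the site was used in 12Z cells.

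RD histone genes were counted at very low levels. The median RD gene had a mean of 3.83 counts over the 6 libraries, 12 of 50 reached a mean of 10 counts, and 30 of 50 had a count of 0 in at least 1 library. The variants had a median of 8601 mean counts and never fell below 363. Per length, the median of the mean FPKM was 0.218 over the RD genes and 93.8 over the variants. The RD genes gave between 1.58% (rhChem157S replicate 2, 95% Wilson interval 1.496 to 1.675) and 2.89% (rhChem157S replicate 3, 2.77 to 3.02) of all counts on the 60 genes. These intervals cover counting error only. How the low RD counts relate to the library preparation cannot be told from these files, since the sources used here do not say whether poly(A) RNA was selected, and the RNAs without a poly(A) tail that were listed as a check were not analysed here.

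**Figure D1:**
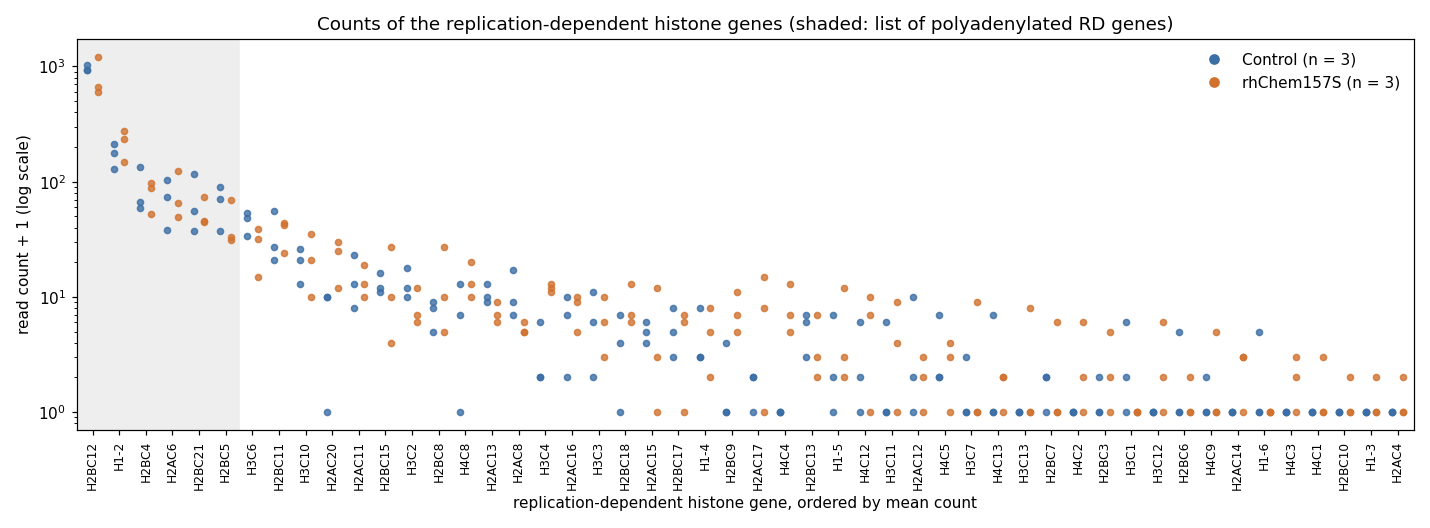
Read counts plus 1 (log scale) of the 50 RD histone genes in each library, ordered by mean count; blue points are Control and orange points rhChem157S libraries, and the 6 genes listed as giving polyadenylated mRNA are shaded. The 6 shaded genes, listed with earlier results of these data known, take the first 6 places, and most other genes lie below 10 counts.

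The counts of the RD class came from few genes. H2BC12, which encodes a core histone H2B, was counted 924, 1031 and 922 times in Control and 660, 599 and 1216 times in rhChem157S libraries. It alone held 44.5% to 66.2% of the RD counts of a library. Of the 100-base stretches of H2BC12, 28.4% also occur in another annotated transcript, so that its counts are in part uncertain. The linker histone gene H1-2 followed, with 210, 176 and 128 counts in Control and 273, 148 and 236 in rhChem157S libraries. H2BC4, H2AC6, H2BC21 and H2BC5 came next, with mean counts of 82.0, 74.3, 61.3 and 54.2. These 6 genes were the 6 listed as known to give polyadenylated mRNA, and they took the first 6 of 50 places by mean count. The list was made with earlier results of these data known, so this match was not an independent test. Together the 6 genes held 77.9% to 88.2% of the RD counts. Of the other 44 genes, H3C6 was highest at a mean of 36.0 counts, and the median was 3.58.

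Per length, H2BC12, H1-2 and H2AC6 took the first places. Mean FPKM was 27.4 for H2BC12, 7.24 for H1-2, 3.91 for H2AC6, 1.13 for H2BC5, 0.922 for H2BC4 and 0.755 for H2BC21, against a median of 0.145 over the other 44. H2BC11 (1.97 FPKM) and H3C10 (1.12 FPKM), which are not on the list, lay within the range of the 6. H2BC12 was the 1 RD gene within the range of the variants, above H2AJ, MACROH2A1 and MACROH2A2 in mean FPKM. By mean count (892) it was above H2AJ (532) but below MACROH2A1 (9338) and MACROH2A2 (1148). The gene length implied by FPKM and counts exceeded 800 bases for 7 RD genes, among them 4 of the listed 6, and H2BC12 was counted on 887 bases against a coding sequence of 381 bases. H2AC6 was counted on 519 bases and H1-2 on 731 bases. By the GENCODE models, RD genes with a poly(A) signal at a transcript end (n = 14) had a median of 0.687 FPKM and those without (n = 36) of 0.132 FPKM. The second group included H2BC12 and H1-2, whose models held coding sequence only. H2BC6 shows the reverse, with a poly(A) signal and at most 4 counts.

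RD genes often lie head to head, as an H2A and an H2B gene that share the stretch between their start sites. H2BC12 and H2AC12 start 331 bases apart, and their mean levels were 27.4 and 0.130 FPKM. H2BC4 and H2AC6 start 219 bases apart, at 0.922 and 3.91 FPKM. H2BC21 and H2AC20 start 323 bases apart and had similar levels, of 0.755 and 0.751 FPKM. A shared stretch was seen both with like and with very unlike levels.

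H2B promoters are known for an octamer that is bound by the factor Oct-1. ATTTGCAT was searched on both strands from 250 bases before to 50 bases after the start in the RefSeq promoters (GRCh38.p14), which covered 54 members. It was found in 12 of 15 RD H2B, 8 of 10 RD H2A, 0 of 5 RD H1, 1 of 8 RD H3 and 0 of 7 RD H4 genes, in 1 of 9 variants and in 2.19% of 27305 promoters. The windows of the most and the least counted H2B genes are shown with the octamer in capitals, because both hold it.
H2BC12: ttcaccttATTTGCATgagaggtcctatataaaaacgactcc
H2BC10: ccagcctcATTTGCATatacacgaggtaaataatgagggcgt
They lie at chr6:27146871-27146912 (minus strand) and chr6:26272878-26272919 (plus strand). H2BC12 had a mean of 892 counts and H2BC10 had 1 count in all 6 libraries together.

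**Figure D2:**
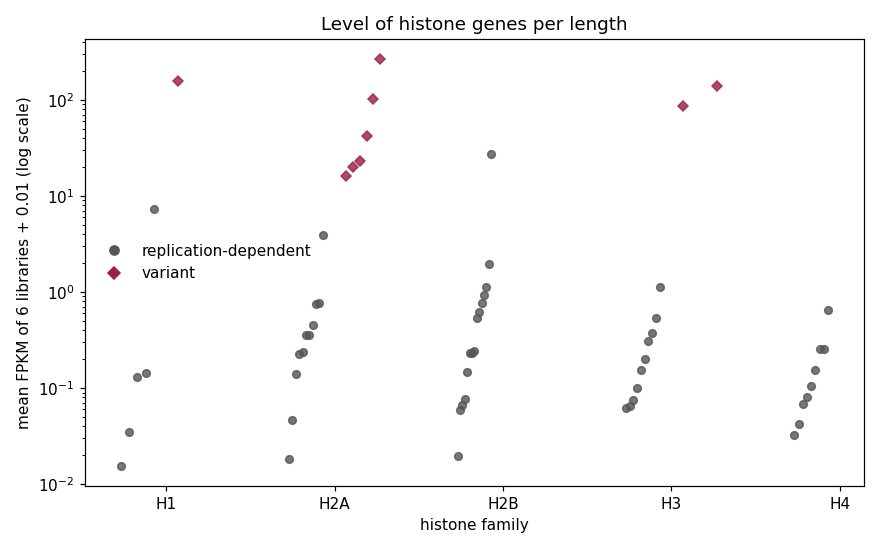
Mean FPKM of 59 of the 60 histone genes over the 6 libraries plus 0.01 (log scale), by histone family; grey circles are RD genes and red diamonds variants. H2BC12, at 27.4 FPKM, is the RD gene that reaches the range of the variants (16.2 to 267 FPKM).

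In the H2A and H3 families, the variants made up nearly all of the FPKM counted in these libraries. They took 97.8% to 99.1% of the summed FPKM of the H2A genes and 98.3% to 99.1% of that of the H3 genes. Whether RD mRNAs without a poly(A) tail were captured is not known, so these need not be the shares in the cells. H2B and H4 had no variant in the rule. Their summed RD level was 24.9 to 43.6 FPKM for the 15 H2B genes and 0.433 to 3.06 FPKM for the 9 H4 genes.

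Changes with rhChem157S were tested on the counts by the quasi-likelihood test of edgeR. Its filter on low counts kept 13311 genes, over which p-values were adjusted (Benjamini-Hochberg). In these bulk libraries, a change in the share of cells in S phase and a change in mRNA per cell cannot be told apart. All 10 variants and 14 of the 50 RD genes passed this filter. An adjusted p under 0.05 was reached by 4 genes in all (0.0301%) and by 0 of the 24 histone genes. At an unadjusted p under 0.05, 0 of the 14 RD genes were called and 4 of the 10 variants were higher. Over all genes tested, 11.4% were higher and 11.4% lower by that rule. The median log2 fold change was 0.06 over the 14 RD genes, 0.20 over the variants and 0.01 over all genes tested. Scaled to library size only, without TMM factors, the median of all genes moved to -0.12, that of the variants to 0.07 and that of the RD genes to -0.05. All values below are on the TMM scale unless stated.

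**Figure D3:**
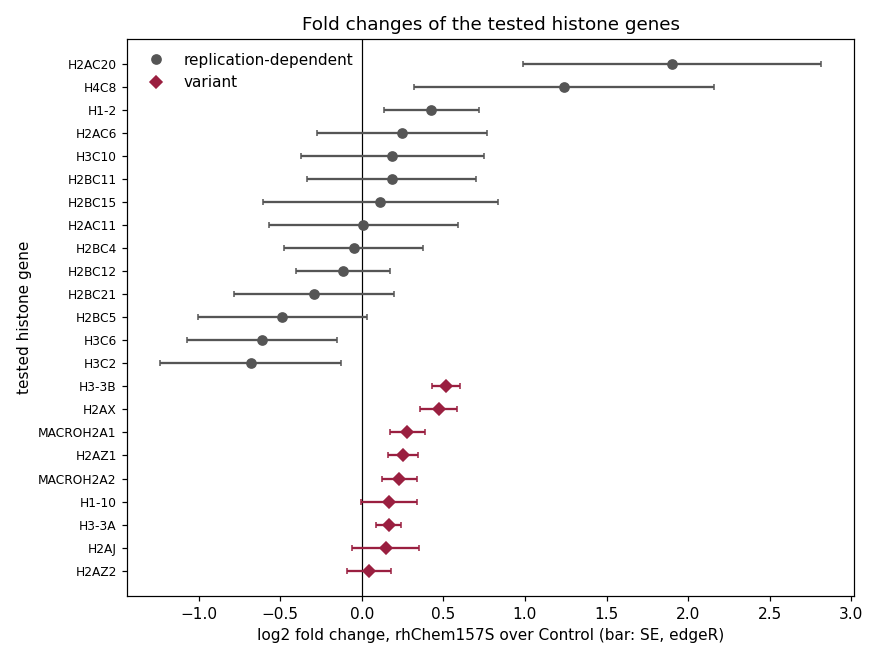
Log2 fold change (rhChem157S over Control) of 23 of the 24 tested histone genes, with the SE of the edgeR fit as bars; grey circles are RD genes and red diamonds variants. The SE of the RD genes ran from 0.29 to 0.92 and that of the variants shown from 0.08 to 0.21.

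Among the tested RD genes, 8 had a positive and 6 a negative log2 fold change, from -0.68 (H3C2) to 1.90 (H2AC20), and none passed the test. The most counted, H2BC12, overlapped between the groups (log2 fold change -0.12, SE 0.29; edgeR adjusted p = 0.831). Its library of rhChem157S replicate 3 was the highest of all 6 and the other 2 rhChem157S libraries were the lowest. Without rhChem157S replicate 3 the log2 fold change was -0.57 (SE 0.10; edgeR adjusted p = 0.0369), and over all alternatives its adjusted p ranged from 0.0369 to 0.930. H1-2 also overlapped (log2 fold change 0.43, SE 0.29; edgeR adjusted p = 0.405), as did H2AC6 (0.25, SE 0.52), H2BC4 (-0.05, SE 0.43), H2BC21 (-0.29, SE 0.49) and H2BC5 (-0.49, SE 0.52).

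H2AC20, an H2A gene of the chromosome 1 cluster, was the single tested RD gene whose groups did not overlap. It was counted 9, 0 and 9 times in Control and 11, 24 and 29 times in rhChem157S libraries (log2 fold change 1.90, SE 0.91; edgeR unadjusted p = 0.0735, adjusted p = 0.259). Of all genes tested, 16.5% did not overlap and were higher, and 16% did not overlap and were lower. Of the 100-base stretches of H2AC20, 17.2% also occur in another annotated transcript, so that its counts are in part uncertain. H4C8, an H4 gene, had 0, 12 and 6 counts in Control and 12, 9 and 19 in rhChem157S libraries, and the groups overlapped (log2 fold change 1.24, SE 0.92; edgeR adjusted p = 0.437). H3C2 and H3C6, both H3 genes, had log2 fold changes of -0.68 (SE 0.55) and -0.61 (SE 0.46) with overlapping groups. The 4 remaining genes, H2AC11, H2BC11, H2BC15 and H3C10, had log2 fold changes between 0.01 and 0.19.

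The scatter of the RD genes between replicates was large. Within groups, counts scaled to equal depth had a median coefficient of variation of 80.6% for the 33 RD genes with mean counts of 1 to 20, against 86.0% for all 2271 genes of that abundance. It was 43.6% for the 8 RD genes above 20 counts and 10.05% for the variants. The variance exceeded the mean, which pure counting error would give, in 31 of those 33 genes (93.9%). The same was seen in 2053 of the 2271 genes of that abundance (90.4%).

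The other 36 RD genes did not pass the filter, and their highest count in a library was 26. The 5 with the highest mean counts were H2BC8, H2AC13, H2AC8, H3C4 and H2AC16. H2BC8 was counted 7, 8 and 4 times in Control and 26, 4 and 9 times in rhChem157S libraries. H2AC13 was counted 9, 8 and 12 times in Control and 8, 6 and 5 times in rhChem157S libraries. Both genes overlapped between the groups. H2AC8 was counted 16, 6 and 8 times against 5, 4 and 4 times, with all rhChem157S counts below all Control counts. H3C4 was counted 5, 1 and 1 times against 11, 12 and 10 times, with all rhChem157S counts above. Every 100-base stretch of the GENCODE model of H3C4 also occurs in a transcript of another gene, so that its counts are uncertain. Exons of other genes cover all 411 bases of that model on the same strand. H2AC16 was counted 9, 6 and 1 times against 4, 8 and 9 times, and the groups overlapped. Summed over the 36 genes, 95, 68 and 79 counts were found in Control and 119, 120 and 137 in rhChem157S libraries.

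Some RD genes were counted in 1 group only. A count of 0 in all Control libraries with counts in rhChem157S libraries was found for H1-3, H2AC4, H2AC14, H2BC10, H3C12, H3C13, H4C1, H4C2, H4C3 and H4C4, and the opposite for H1-6 and H3C1. Among the 29 RD genes with mean counts of 0.1 to 5 these were 34.5% and 6.90%, and among all 2449 genes of that abundance 17.1% and 29.03%. The 10 genes held 53 counts in all. H4C4, singled out after its values were seen, held 22 of them, with 0 in each Control library and 4, 6 and 12 in the rhChem157S libraries. Its CPM ratio was 7.74 when 3 counts over the Control group were taken in place of 0. That ratio leaves out the scatter between replicates and is not a lower bound. When all genes were tested with no filter on low counts, H4C4 had an edgeR unadjusted p of 0.00726 and an adjusted p of 0.134, and H3C4 of 0.0318 and 0.212. Leaving out each library in turn, H3C4 had an unadjusted p under 0.05 without Control replicate 1 and without rhChem157S replicate 3.

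Summed over the class, RD levels did not separate the groups. The sum of the 50 genes was 49.4, 40.2 and 41.6 CPM in Control and 38.7, 33.5 and 61.4 CPM in rhChem157S libraries, so that the rhChem157S libraries held both the lowest and the highest. The 6 listed polyadenylated genes gave 37.7 ± 4.44 CPM (SD, n = 3) in Control and 36.7 ± 14.2 CPM (SD, n = 3) in rhChem157S libraries. The other 44 genes were at 6.56, 4.75 and 6.84 CPM in Control and at 7.46, 7.40 and 8.49 CPM in rhChem157S libraries. These did not overlap, and the ratio of the means was 1.29. The log2 ratio was 0.36 with all 44 genes and 0.16 without those that share a 100-base stretch with another gene, whose counts are uncertain.

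By family, only the H4 genes separated the groups. They were at 0.163, 0.516 and 0.345 CPM in Control and at 0.652, 0.793 and 1.37 CPM in rhChem157S libraries, a ratio of means of 2.75 that rested on 6 to 20 counts per Control and 25 to 46 counts per rhChem157S library. The log2 ratio of 1.46 became 1.08 without rhChem157S replicate 3 and 1.89 without Control replicate 2. The H4 genes with the highest mean counts were H4C8 and H4C4. H4C8 had 0, 12 and 6 counts in Control and 12, 9 and 19 in rhChem157S libraries. H4C4, singled out after its values were seen, had 0 in each Control library and 4, 6 and 12 in the rhChem157S libraries. The H4 sum without these genes was not examined. The sums of the RD H1, H2A, H2B and H3 genes overlapped between the groups, at ratios of 1.34, 1.25, 0.933 and 0.985. These sums describe the libraries and were not tested.

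**Figure D4:**
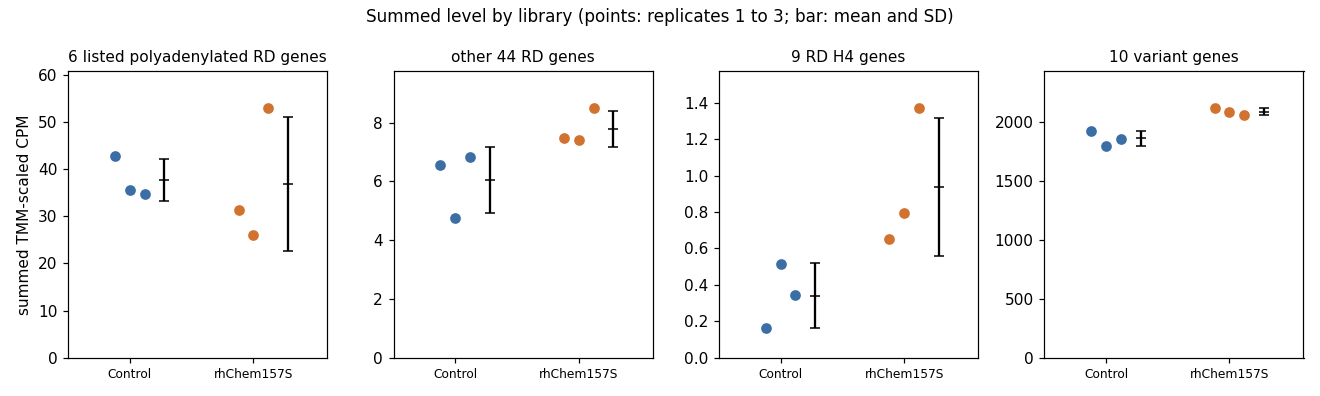
Summed TMM-scaled CPM by library for the 6 listed polyadenylated RD genes, the other 44 RD genes, the 9 RD H4 genes and the 10 variants; points are replicates 1 to 3 of each group and bars the mean and SD. The listed genes overlap between the groups, while the rhChem157S libraries lie above the Control libraries for the other 3 sums.

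Variant histone mRNAs were abundant in 12Z cells, and the order of those described, per length in Control cells, was clear at most steps. H2AZ1, which encodes the H2A.Z found in nucleosomes next to active start sites, was highest at 255 ± 17.03 FPKM (SD, n = 3). The linker histone gene H1-10 (154 ± 18.3 FPKM) and the H3.3 gene H3-3B (122 ± 5.09 FPKM) followed, without overlap in range between them. H2AX, which encodes the histone that is phosphorylated around DNA breaks, was at 89.7 ± 9.61 FPKM and overlapped with the second H3.3 gene H3-3A (84.8 ± 3.27 FPKM). H2AZ2 (43.3 ± 7.08 FPKM), H2AJ (23.1 ± 2.11 FPKM), MACROH2A1 (19.0 ± 0.569 FPKM) and MACROH2A2 (15.6 ± 1.83 FPKM) formed the lower end, with no overlap between neighbours. The order depends on the gene lengths used, 12741 bases for MACROH2A1 and 6301 for H2AZ2, against 620 for H2AJ. By mean Control counts, not scaled for length, H2AZ2 (9836) and MACROH2A1 (8716) were above H1-10 (8411) and H2AZ1 (7975). MacroH2A carries a large globular domain beyond its H2A part and is known from repressed chromatin.

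With rhChem157S, 6 of the 10 variants were higher without overlap between the groups, as were 16.5% of all genes tested. H3-3B had the smallest p of the 10. It was at 332, 312 and 302 CPM in Control and at 439, 435 and 480 CPM in rhChem157S libraries. The groups were well apart, with a log2 fold change of 0.52 (SE 0.09; edgeR unadjusted p = 0.000434, adjusted p = 0.0707). H3-3A, which encodes the same H3.3 protein, was at 127, 120 and 116 CPM in Control and 136, 141 and 131 CPM in rhChem157S libraries. It did not overlap either, and its log2 fold change was 0.17 (SE 0.08; edgeR unadjusted p = 0.0655, adjusted p = 0.246). The summed H3.3 level was 436 ± 20.3 CPM (SD, n = 3) in Control and 587 ± 20.8 CPM (SD, n = 3) in rhChem157S libraries.

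H2AX was at 155, 128 and 127 CPM in Control and at 198, 170 and 201 CPM in rhChem157S libraries. Each treated library was above each Control library, with a log2 fold change of 0.47 (SE 0.11; edgeR unadjusted p = 0.00369, adjusted p = 0.103). H2AZ1 was at 228, 209 and 198 CPM in Control and at 258, 234 and 264 CPM in rhChem157S libraries (log2 fold change 0.25, SE 0.09; edgeR unadjusted p = 0.0268, adjusted p = 0.171). The groups were apart by less than the range within either. Its paralogue H2AZ2 overlapped, at 297, 273 and 213 CPM in Control and 287, 265 and 255 CPM in rhChem157S libraries (log2 fold change 0.04, SE 0.13; edgeR adjusted p = 0.862).

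MACROH2A1 was at 235, 235 and 223 CPM in Control and at 249, 272 and 319 CPM in rhChem157S libraries (log2 fold change 0.28, SE 0.11; edgeR unadjusted p = 0.0321, adjusted p = 0.184). The library of rhChem157S replicate 3 was the highest. MACROH2A2 was at 25.5, 31.7 and 29.2 CPM in Control and at 33.6, 32.5 and 35.3 CPM in rhChem157S libraries, with a gap smaller than the range within Control (log2 fold change 0.23, SE 0.11; edgeR adjusted p = 0.256). H2AJ, a variant close to canonical H2A, was at 12.4, 13.9 and 14.8 CPM in Control and at 18.5, 16.2 and 10.8 CPM in rhChem157S libraries, and overlapped (log2 fold change 0.15, SE 0.21; edgeR adjusted p = 0.687).

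The linker histone gene H1-10 was at 256, 210 and 204 CPM in Control and at 285, 276 and 190 CPM in rhChem157S libraries, and overlapped (log2 fold change 0.17, SE 0.17; edgeR adjusted p = 0.574).

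**Figure D5:**
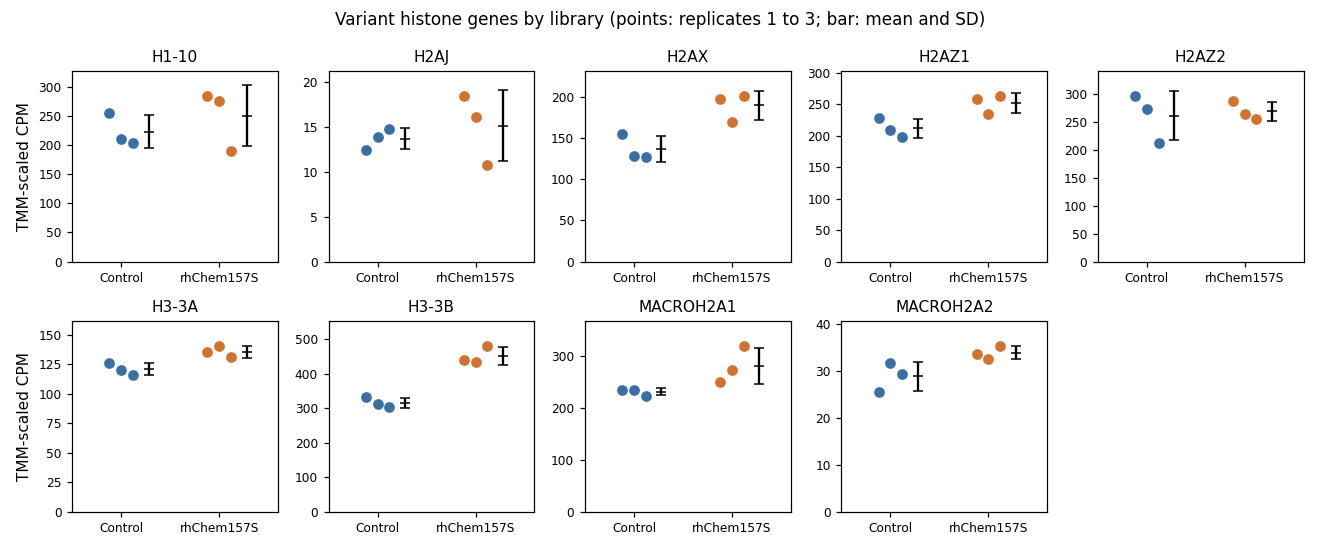
TMM-scaled CPM of 9 variant histone genes in each library; points are replicates 1 to 3 of each group and bars the mean and SD (n = 3). For H3-3B the Control libraries lie between 302 and 332 CPM and the rhChem157S libraries between 435 and 480 CPM.

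DESeq2, the test the authors used, called 2 of the 10 variants with an adjusted p under 0.05, both higher. It called no RD gene of the rule. The paper also required a fold change above 2, while no such cutoff was applied here. Over all genes 4.58% were called higher and 6% lower. The DESeq2 adjusted p was 6.00e-06 for H3-3B and 0.00970 for H2AX. Their DESeq2 log2 fold changes were 0.51 and 0.47, both below the cutoff of the paper. Over all alternatives, the adjusted p of H3-3B ranged from 6.00e-06 to 0.359 and that of H2AX from 0.00970 to 0.377. The scaling moved the smaller differences. On FPKM, which is scaled to the library total only, H3-3B, H2AX and MACROH2A1 were still higher without overlap, and H2AZ1, H3-3A and MACROH2A2 overlapped. The number of variants higher at an unadjusted p under 0.05 was 4 in the main fit, 2 with library size only, 2 without Control replicate 3 and 7 without rhChem157S replicate 3.

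In GENCODE 29, exons of other genes overlap on the opposite strand by 214 bases for H3-3B, 223 for H2AZ1, 345 for H1-10 and 5477 for MACROH2A1. The strand setting of the counting is not given in the sources used here, so reads of these genes and of their antisense partners cannot be told apart there.

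Of the 21 listed genes that make and process RD histone mRNA, 3 were higher and 1 was lower at an unadjusted p under 0.05, where 11.4% of all genes tested were called in each direction. The median log2 fold change was 0.02, against 0.01 over all genes tested. With library size only, 0 were higher and 3 lower, and the median was -0.11 against -0.12. SLBP, which binds the stem-loop, was at 82.5 ± 5.35 FPKM in Control and 75.5 ± 2.90 FPKM in rhChem157S libraries (SD, n = 3), with a log2 fold change of 0.01 (SE 0.10). NPAT, the co-activator of RD histone transcription, had a log2 fold change of 0.06 (SE 0.10) and CASP8AP2, also known as FLASH, of -0.04 (SE 0.09). The signs for SLBP and NPAT turned with library size only. The cap-binding protein gene NCBP1 (0.35, SE 0.12; edgeR adjusted p = 0.165), the terminal uridylyltransferase gene TUT7 (0.24, SE 0.09; adjusted p = 0.178) and the cleavage factor gene CSTF2 (0.38, SE 0.15; adjusted p = 0.188) were higher without overlap. E2F1, a transcription factor of S phase entry, was lower without overlap, with 4702, 4912 and 4759 counts in Control and 3910, 3762 and 3085 in rhChem157S libraries (log2 fold change -0.34, SE 0.08; edgeR adjusted p = 0.103). By DESeq2 its adjusted p was 0.0102, within a range of 0.0102 to 0.377 over all alternatives.

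Histone chaperones and assembly factors, which carry histones to DNA and exchange them, had mostly positive fold changes. Of the 33 tested, 25 had a positive log2 fold change, 11 were higher and 0 lower at an unadjusted p under 0.05 (11.4% of all genes tested in each direction), and 19 were higher and 2 lower without overlap (16.5% and 16% of all genes tested). None had an edgeR adjusted p under 0.05, and 7 were called higher and 0 lower by DESeq2 (4.58% and 6% of all genes). The median log2 fold change was 0.17, against 0.01 over all genes tested, and with library size only it was 0.04 against -0.12, with 4 higher and 2 lower at an unadjusted p under 0.05. NPM1, the nucleolar chaperone nucleophosmin, was counted 18451, 18673 and 20077 times in Control and 24676, 25190 and 36728 times in rhChem157S libraries. All treated libraries were above all Control libraries and replicate 3 was far above the other treated libraries (log2 fold change 0.69, SE 0.20; edgeR adjusted p = 0.124). SSRP1, a subunit of the FACT complex, had a log2 fold change of 0.41 (SE 0.12; edgeR adjusted p = 0.135). ACTL6A, an actin-related subunit of chromatin remodelling complexes, had one of 0.40 (SE 0.08; edgeR adjusted p = 0.0753). ANP32E, which removes H2A.Z from nucleosomes, had one of 0.32 (SE 0.09; edgeR adjusted p = 0.129), and NAP1L4, a nucleosome assembly protein gene, one of 0.28 (SE 0.08; edgeR adjusted p = 0.123). NASP, a chaperone of H3 and H4, was at 92.6 ± 0.577 FPKM in Control and 95.9 ± 9.55 FPKM in rhChem157S libraries, with a log2 fold change of 0.18 (SE 0.08; edgeR adjusted p = 0.235).

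The S phase genes, listed because RD histone genes are transcribed in that phase, were mixed. Of 24 tested, 17 had a positive log2 fold change, 6 were higher and 1 was lower at an unadjusted p under 0.05 (11.4% of all genes tested in each direction), and 11 were higher and 1 lower without overlap (16.5% and 16%). The median log2 fold change was 0.08. With library size only, 10 of 24 were positive, 4 were higher and 2 lower at an unadjusted p under 0.05, and the median was -0.048, against -0.12 over all genes tested. MKI67, the proliferation marker Ki-67, was counted 27753, 27121 and 26674 times in Control and 38825, 37618 and 34263 times in rhChem157S libraries (log2 fold change 0.52, SE 0.09; edgeR adjusted p = 0.0707). RRM2, the small subunit of ribonucleotide reductase, had a log2 fold change of 0.38 (SE 0.10), POLA1, the catalytic subunit of DNA polymerase alpha, of 0.41 (SE 0.10), and GINS2, part of the replicative helicase, of 0.39 (SE 0.10). The edgeR adjusted p of these 3 genes lay between 0.106 and 0.110, and all 3 were higher without overlap. CDC6, which loads the helicase at origins, was lower without overlap, with 4452, 4802 and 4579 counts in Control and 3756, 3690 and 3782 in rhChem157S libraries (log2 fold change -0.22, SE 0.08; edgeR adjusted p = 0.177).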

How the data were processed

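RNA of 12Z cells was sequenced in 3 Control and 3 rhChem157S libraries. Per the paper and the submitters' processing notes, the authors trimmed reads with fastp, aligned them to GRCh38.p13 (HISAT2) and made gene counts with HTSeq. They deposited counts without normalisation and FPKM; all 89195 FPKM values above 0 equalled the count divided by a fixed length and the library total within 0.1%. The strand setting and annotation release were not given in the sources used here. Members and lists were chosen with earlier results of these data known. Counts were tested in R 4.3.3 with edgeR 4.0.16 (TMM, filterByExpr, quasi-likelihood, two-sided, Benjamini-Hochberg over 13311 genes); CPM used TMM-scaled library sizes. Alternatives were DESeq2 1.42.0, RLE factors, library size only, no filter on low counts, limma 3.58.1 on FPKM with a pseudocount of 1 or of 0.1 before taking log2, the replicate number as a block, and removal of each library in turn. On simulated counts of 13311 genes, 200 of them changed, the main test was tried first. Text names the variants, tested RD genes, the 5 highest untested RD genes, SLBP, NPAT, CASP8AP2, NASP, and up to 5 genes per list and direction with the smallest unadjusted p under 0.05; the values of some of these genes are not reported here. Positions and transcript ends came from GENCODE release 29 and matched all 60 genes, 2 of them by an older symbol; promoters came from RefSeq. Sequence shared with other genes was found as identical 100-base stretches of GENCODE transcripts, which include genes that overlap at the same place. With 35430881 to 38341643 counts per library, genes under about 10 counts carry large counting error.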

Additional observations from a re-analysis of the deposited data

How the results depend on the processing

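The 4 genes called at an adjusted p under 0.05 over all genes became 1407 with DESeq2, 17 with no filter on low counts, 179 with limma on log2(FPKM + 1), 23 with limma on log2(FPKM + 0.1) and 1 with the replicate block. They numbered 0 to 844 when a library was left out, with 844 without rhChem157S replicate 1 and 415 without rhChem157S replicate 3. The 0 histone genes called became 2 with DESeq2 and 0 to 2 when a library was left out. At an unadjusted p under 0.05, the 0 RD genes that were higher became 2 with no filter, 1 with limma under either pseudocount and 0 to 1 when a library was left out, and the 0 that were lower became 0 to 1. The 4 variants that were higher became 2 with library size only, 2 with limma under either pseudocount and 2 to 7 when a library was left out. The median log2 fold change of the variants, 0.20, was 0.074 with library size only, 0.067 with limma on log2(FPKM + 1) and 0.070 with limma on log2(FPKM + 0.1). The log2 ratio of the summed CPM of the variants, 0.16, was 0.04 with library size only and -0.15 without the 6 variants that share a 100-base stretch with another gene. The median of the RD genes stayed within the spread between replicates under every alternative, from -0.11 to 0.33 when a library was left out, and the summed RD CPM likewise, at log2 ratios of -0.28 to 0.19.

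Some differences near 0 changed sign, and the cause was not tested. With library size only, the log2 fold change became -0.082 for H2AZ2, -0.11 for H2AC11, -0.13 for SLBP and -0.071 for NPAT. With limma on log2(FPKM + 1) it became -0.014 for H2AJ, -0.073 for H2AZ2, -0.032 for H2AC11, -0.050 for H2BC15, -0.12 for SLBP and -0.058 for NPAT. With limma on log2(FPKM + 0.1) it became -0.016 for H2AJ, -0.074 for H2AZ2, -0.032 for H2AC11, -0.30 for H2BC15, -0.025 for H3C10, -0.13 for SLBP and -0.069 for NPAT. With the replicate block it became -0.14 for H2BC15 and 0.0025 for H2BC4. Leaving out each library gave -0.030 to 0.34 for H2AJ, -0.084 to 0.15 for H2AZ2, -0.32 to 0.53 for H2AC11, -0.31 to 0.64 for H2AC6, -0.070 to 0.73 for H2BC11, -0.57 to 0.063 for H2BC12, -0.87 to 0.55 for H2BC15, -0.61 to 0.33 for H2BC21, -0.28 to 0.44 for H2BC4, -0.28 to 0.52 for H3C10, -0.066 to 0.061 for SLBP and -0.089 to 0.019 for CASP8AP2. The directions of the other tested histone genes of the rule and of the other genes of the 3 lists that the text names did not change under any alternative run. The directions of the cell markers and of the histone genes outside the rule were not followed across these alternatives.

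The groups share replicate numbers. Deviations from the group means correlated at 0.241, 0.00147 and 0.247 between same-numbered libraries, so the numbers were not taken as pairs, and the block changed no histone call. The separate sums of the other 44 RD genes, the RD H4 genes and the variants, with all their alternatives, and library removal for the summed RD CPM were added after the data were seen. Depth limits the RD genes, since 36 of 50 were too low to test.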

Other observations

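Histone genes whose symbols fall outside the rule were looked at after their values were seen. H3-2, a histone H3 gene, was lower without overlap, with 224, 223 and 209 counts in Control and 137, 98 and 121 counts in rhChem157S libraries (log2 fold change -0.80, SE 0.20; edgeR unadjusted p = 0.00487, adjusted p = 0.107; DESeq2 adjusted p = 0.00573). H2BU1 was counted 3, 1 and 8 times in Control and was at 0 in all rhChem157S libraries. H2AW, an H2A gene, was counted 79, 73 and 86 times in Control and 99, 88 and 116 times in rhChem157S libraries (log2 fold change 0.43, SE 0.26; edgeR adjusted p = 0.352). CENPA, the histone H3 variant of centromeres, overlapped between the groups at 994, 823 and 886 counts in Control and 978, 977 and 798 counts in rhChem157S libraries. H3-5 also overlapped, with 55, 61 and 41 counts in Control and 73, 63 and 44 counts in rhChem157S libraries. H2BE1, H2BS1, H3Y1 and H4-16 had at most 6 counts in a library.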
